A study of Mus musculus with 8 samples.

Results

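Sialic acids are acidic sugars that cap the glycans of cell surface and secreted proteins and lipids. The genes described here are Cmah and 9 further genes that make, activate, transport or attach sialic acid, namely Cmas, Gne, Nans, Slc35a1, St3gal1, St3gal4, St3gal6, St6gal1 and St8sia4. They are 10 of the 27179 genes in the deposited count table, selected on their names and on the read counts of this same comparison, since the list was drawn up with its results in view. Their differences between populations are therefore given as a description, with no p-value of their own.

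The libraries came from lungs of mice labeled C57BL/6 (C57BL/6J females in the study's methods) in which an intrapulmonary adenovirus carrying Cas9 and guide RNAs had made the Eml4-Alk rearrangement, a driver of lung adenocarcinoma. Mice aged 18 to 22 weeks, 11 to 12 weeks after tumor induction, received 4.5 nmol of QZ1 in the tail vein. QZ1 is a quenched, PEG-coupled Cy5 peptide probe that becomes fluorescent when proteases cut its linker. After 2 h the lungs were dissociated, and live cells negative for CD45 and CD11b, markers of blood-derived cells, were sorted by probe signal into QZ1-hi (4 libraries) and QZ1-lo (4 libraries) populations of at least 100000 cells each. Both populations came from tumor-bearing, probe-injected lungs, so the comparison is of cells with high and low probe signal and not of tumor with healthy lung. The labels do not say which libraries came from the same mouse, and p-values below measure the spread between these libraries. Every test treats the 8 libraries as independent, although QZ1-hi and QZ1-lo libraries may share mice.

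The pathway starts in the cytosol. Gne makes N-acetylmannosamine and phosphorylates it, and it is the rate-limiting enzyme of the pathway. Nans condenses the product into a sialic acid phosphate, which Nanp dephosphorylates. Cmas then couples the free sialic acid to CMP in the nucleus. Cmah hydroxylates the CMP-bound N-acetyl form to the N-glycolyl form, a step that mice carry out and humans have lost. Slc35a1 carries CMP-sialic acid into the Golgi, where sialyltransferases attach it. The ST3GAL and ST6GAL enzymes place it on galactose, the ST6GALNAC enzymes on N-acetylgalactosamine, and the ST8SIA enzymes on another sialic acid. Siglecs and selectins are receptors that read the finished caps.

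Promoter sequences are shown for Cmah and St3gal4 because these members differed furthest between the populations in opposite directions. Promoters were the 250 bases before and 50 bases after each RefSeq start on GRCm38.p6, and entries were found for 8 of the 10 genes, with 13 starts in all. CpG dinucleotides are in capitals, and each sequence reads 5′ to 3′ on the strand of its gene. The first Cmah start lies at chr13:24327154-24327453 on the plus strand, the second at chr13:24414872-24415171 on the plus strand, and the St3gal4 start at chr9:35116815-35117114 on the minus strand.
Cmah first start: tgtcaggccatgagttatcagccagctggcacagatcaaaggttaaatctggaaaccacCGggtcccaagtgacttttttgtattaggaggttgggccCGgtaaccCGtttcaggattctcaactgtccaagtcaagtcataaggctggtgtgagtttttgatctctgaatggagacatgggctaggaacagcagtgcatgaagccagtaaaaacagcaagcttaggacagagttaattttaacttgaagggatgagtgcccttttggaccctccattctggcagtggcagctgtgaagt
Cmah second start: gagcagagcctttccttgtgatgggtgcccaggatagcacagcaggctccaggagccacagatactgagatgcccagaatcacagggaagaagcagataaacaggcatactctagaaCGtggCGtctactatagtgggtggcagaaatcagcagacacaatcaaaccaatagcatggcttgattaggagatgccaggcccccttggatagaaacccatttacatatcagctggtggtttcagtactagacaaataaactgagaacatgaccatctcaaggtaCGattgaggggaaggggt
St3gal4: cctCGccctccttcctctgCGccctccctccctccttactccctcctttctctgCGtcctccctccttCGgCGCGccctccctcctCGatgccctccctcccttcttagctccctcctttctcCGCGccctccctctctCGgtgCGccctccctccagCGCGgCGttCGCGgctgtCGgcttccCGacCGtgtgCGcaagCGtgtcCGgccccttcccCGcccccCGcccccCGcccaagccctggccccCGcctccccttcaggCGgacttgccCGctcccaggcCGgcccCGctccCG

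Each Cmah promoter held 3 CpG dinucleotides, with 47.3% and 48.7% G or C. The St3gal4 promoter held 31 CpG dinucleotides and 74.0% G or C. Over 27025 RefSeq promoters of the same length the medians were 7 CpG dinucleotides and 52.7% G or C. Of these promoters, 31.9% held 3 or fewer CpG and 10.3% held 31 or more. The letters GGGCGG, searched on both strands, occurred 3 times in the St3gal4 promoter, in neither Cmah promoter, and in 35.9% of all promoters. St3gal6 had a CpG-poor start with 3 CpG and no GGGCGG, and a CpG-rich start with 20 CpG and 5 occurrences. Nans and St3gal1 were not matched.

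Libraries held 18380918 to 26847938 counts. Mitochondrial ribosomal RNA took 50.1% ± 8.76 of the QZ1-hi counts and 37.3% ± 7.501 of the QZ1-lo counts (SD, n = 4 each; two-sided exact permutation p = 0.0857). Levels are therefore given as CPM, counts scaled to a common library total after TMM normalization, which sets libraries on a shared scale from the bulk of their genes. On this scale the limit that 3 counts set ran from 0.0894 to 0.179 CPM. Of the markers of other cell types, the summed endothelial markers reached 734 to 1819 CPM in QZ1-hi and 49.3 to 244 CPM in QZ1-lo, with 7 of 7 genes called higher. Fibroblast markers summed to 1572 to 3035 CPM against 38.8 to 353 CPM, with 6 of 6 called higher, and pericyte markers to 53.7 to 79.3 CPM against 8.27 to 26.1 CPM, with 3 of 6 called higher. Club cell markers summed to 311 to 973 CPM against 1389 to 3998 CPM and ciliated cell markers to 67.6 to 197 CPM against 318 to 600 CPM. None of these 5 sums overlapped between the populations (exact permutation p = 0.0286 each, the smallest that 4 against 4 allows). The epithelial sum overlapped, at 4850 to 9013 CPM against 4335 to 6887 CPM (p = 0.314, exact permutation test), while 5 of its 7 genes were called lower and 1 higher. Epcam, among those called lower, stood at 58.7 CPM ± 16.3 against 132 CPM ± 17.4 (SD, n = 4 each; edgeR adjusted p = 0.00158), and EpCAM staining was the other axis of the sort gate. Despite the CD45 gate, Ptprc, which encodes CD45, stood at 71.4 to 222 CPM in QZ1-hi and 93.4 to 161 CPM in QZ1-lo. In RNA from sorted pools, fewer cells of a type and less RNA per cell cannot be told apart.

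All 10 genes passed the filter on low counts. The edgeR quasi-likelihood test, with Benjamini-Hochberg adjustment over all 15583 genes tested and a threshold of 0.05, called Cmah and St3gal6 higher in QZ1-hi, called St3gal4 lower, and called none of the other 7. Over all genes tested, 18.1% were called, 9.88% higher and 8.21% lower. The ranges of the populations in CPM were apart for the same 3 members and for 22.6% of all genes. The log2 fold change of QZ1-hi over QZ1-lo was positive in 9 of 10 members with a median of 0.37, beside 8133 positive genes and a median of 0.02 over all genes tested. Scaled by library size alone, the median of all genes moved to -0.44, and 5 of the 9 positive members turned negative, and of the members only Cmah was then called higher and St3gal4 lower. Members that differ by less than that shift are described below relative to TMM scaling.

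**Figure D1:**
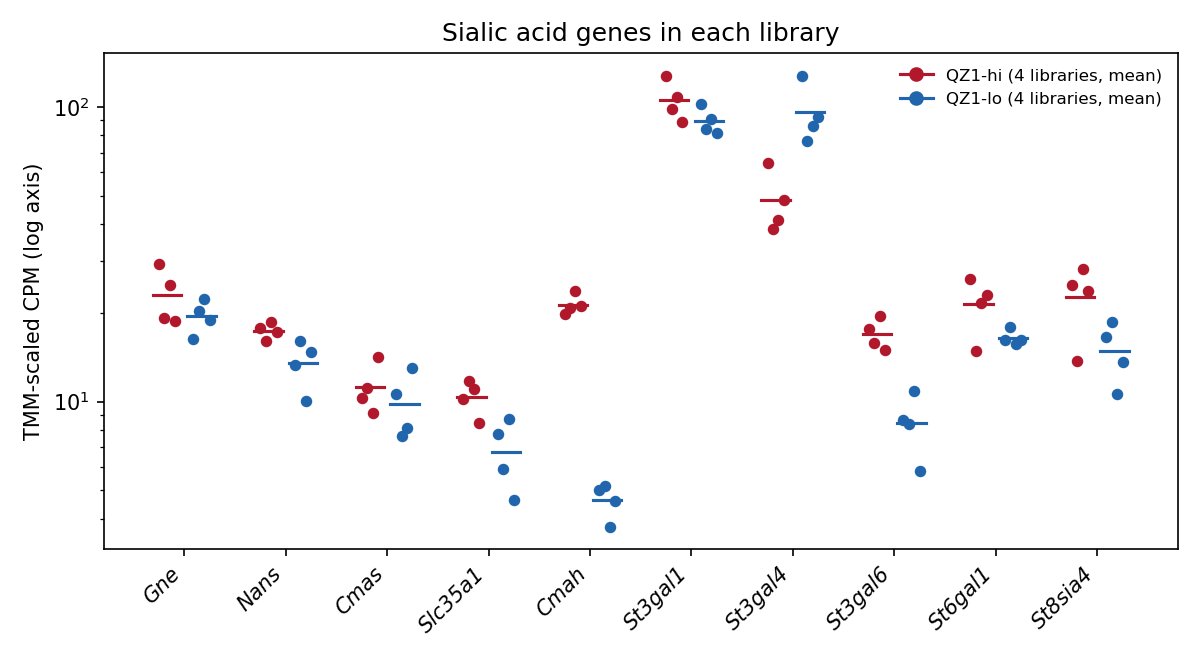
TMM-scaled CPM of the 10 sialic acid genes, on a log axis, with a point for each of the 4 QZ1-hi and 4 QZ1-lo libraries and a line at each population's mean. Cmah sits near 21.3 CPM in QZ1-hi and 4.63 CPM in QZ1-lo with no overlap, St3gal6 lies higher and St3gal4 lower in QZ1-hi, and the other 7 genes overlap.

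Cmah (Entrez 12763; chr13:24327404-24477377, plus strand, mm10) stood apart in every library. It measured 19.8, 20.7, 23.6 and 21.04 CPM in the QZ1-hi libraries and 5.01, 5.17, 3.76 and 4.58 CPM in the QZ1-lo libraries. The lowest QZ1-hi library was thus well above the highest QZ1-lo library, and both populations were tight. These levels rest on 353 to 468 reads a library in QZ1-hi and 104 to 168 in QZ1-lo. The population means were 21.3 CPM ± 1.64 and 4.63 CPM ± 0.628 (SD, n = 4 each). The fitted log2 fold change was 2.20 with a standard error (SE) of 0.17, a 4.60-fold difference. Leaving out any 1 library kept the log2 fold change between 2.11 and 2.26, and the gene stayed past the threshold each time.

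The endothelial, fibroblast and pericyte sums moved with Cmah between the populations, and their part in its difference was not tested. Of the blood cell lists, the platelet sum moved with Cmah, at 11.8 to 20.1 CPM in QZ1-hi and 2.89 to 7.49 CPM in QZ1-lo, with 2 of 3 genes called higher (exact permutation p = 0.0286). The other blood cell sums overlapped. Pan-leukocyte markers summed to 295 to 684 CPM and 270 to 494 CPM (exact permutation p = 0.6, none of 3 called), and myeloid markers to 287 to 557 CPM and 290 to 466 CPM (exact permutation p = 0.971, none of 5 called). B cell markers summed to 1.28 to 3.99 CPM and 1.63 to 3.49 CPM (exact permutation p = 0.657, none of 3 tested called), and T cell markers to 3.16 to 6.42 CPM and 3.58 to 14.8 CPM (exact permutation p = 0.114, 1 of 4 called lower). Erythroid markers, none of 4 called, ranged widely, at 131 to 1006 CPM and 282 to 3097 CPM (exact permutation p = 0.2).

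Enzymes upstream of Cmah differed little. Gne (Entrez 50798; chr4:44034075-44084177, minus strand) measured 29.4, 19.3, 24.9 and 18.7 CPM in QZ1-hi and 16.2, 20.3, 22.3 and 19.0 CPM in QZ1-lo, with overlapping populations and a log2 fold change of 0.25 (SE 0.18). Nans (Entrez 94181; chr4:46489248-46503632, plus strand) measured 17.8, 16.1, 18.6 and 17.2 CPM against 13.4, 16.1, 10.02 and 14.7 CPM, a log2 fold change of 0.36 (SE 0.17). All QZ1-hi values of Nans but the lowest were above every QZ1-lo value. Cmas (Entrez 12764; chr6:142756686-142775714, plus strand), the step just before Cmah, measured 10.3, 11.2, 9.13 and 14.1 CPM against 10.6, 7.65, 8.14 and 13.0 CPM. Its populations were interleaved, with a log2 fold change of 0.18 (SE 0.22). None of these 3 genes was called, and each log2 fold change turned negative when libraries were scaled by size alone.

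Because a ratio of 2 genes within a library does not depend on how libraries are scaled, raw counts of Cmah were also set against its neighbors in the pathway. There were 1.49 to 2.59 reads of Cmah for each read of Cmas in QZ1-hi libraries and 0.353 to 0.676 in QZ1-lo libraries. Against Gne the ratio was 0.675 to 1.12 in QZ1-hi and 0.169 to 0.308 in QZ1-lo. Cmah thus exceeded Cmas in reads in every QZ1-hi library and fell short of it in every QZ1-lo library. Reads were not divided by length in these ratios, so they compare populations and not the levels of the paired genes.

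The CMP-sialic acid transporter Slc35a1 (Entrez 24060; chr4:34663257-34687438, minus strand) measured 10.2, 11.7, 11.0 and 8.46 CPM in QZ1-hi and 7.75, 5.90, 8.76 and 4.62 CPM in QZ1-lo. Only the lowest QZ1-hi library overlapped with the QZ1-lo range, by a single library. The log2 fold change was 0.61 (SE 0.24), and the gene was not called.

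Among the ST3GAL members, which cap galactose, the directions were opposite. St3gal4 (Entrez 20443; chr9:35046576-35119268, minus strand), an enzyme of N-glycans and O-glycans that takes part in making selectin ligands, measured 64.3, 38.6, 41.4 and 48.3 CPM in QZ1-hi and 128, 76.9, 86.3 and 92.1 CPM in QZ1-lo. Every QZ1-lo library was above every QZ1-hi library. The means were 48.1 CPM ± 11.5 and 95.8 CPM ± 22.2 (SD, n = 4 each). St3gal4 was thus 1.99-fold higher in QZ1-lo, with a fitted log2 fold change of -0.99 (SE 0.20). St3gal6 (Entrez 54613; chr16:58468125-58524243, minus strand), which acts on similar chains, measured 17.7, 15.9, 19.5 and 14.96 CPM in QZ1-hi and 8.68, 8.38, 10.9 and 5.81 CPM in QZ1-lo. Its populations did not overlap, with means of 17.01 CPM ± 2.03 and 8.43 CPM ± 2.07 (SD, n = 4 each) and a log2 fold change of 1.01 (SE 0.21), 2.02-fold. With library size alone the log2 fold change of St3gal6 was 0.56 and the call was lost. St3gal1 (Entrez 20442; chr15:67102875-67176830, minus strand), which caps core O-glycans, measured 127, 98.3, 108 and 88.9 CPM against 102, 84.0, 90.8 and 81.2 CPM, with overlapping populations and a log2 fold change of 0.24 (SE 0.14) that was -0.20 with library size alone.

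Within libraries, there were 2.12 to 3.64 reads of St3gal4 for each read of St3gal6 in QZ1-hi and 7.95 to 15.9 in QZ1-lo. For each read of St3gal4 there were 1.84 to 2.60 reads of St3gal1 in QZ1-hi and 0.799 to 1.09 in QZ1-lo. Neither ratio overlapped between the populations. Exons of St3gal4, St3gal6, Nans, Slc35a1 and St6gal1 overlap exons of a gene on the other strand (4930581F22Rik, Dcbld2, Trim14, Gm22849 and BC106179, respectively), and whether counting used strand is not given in the sources used here.

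St6gal1 (Entrez 20440; chr16:23224740-23360350, plus strand) caps N-glycans and makes the ligand of the B cell receptor Cd22. It measured 26.1, 14.8, 21.7 and 23.0 CPM in QZ1-hi and 16.2, 17.9, 15.6 and 16.2 CPM in QZ1-lo, with a log2 fold change of 0.38 (SE 0.18) that was -0.050 with library size alone. St8sia4 (Entrez 20452; chr1:95587682-95667571, minus strand), which builds polysialic acid, measured 25.0, 13.7, 28.2 and 23.7 CPM against 16.5, 18.7, 10.6 and 13.7 CPM, with a log2 fold change of 0.60 (SE 0.24). In both genes QZ1-hi library 2 lay within or below the QZ1-lo range while the other 3 QZ1-hi libraries were above it. Neither gene was called, and both were called higher when that library was left out, at log2 fold changes of 0.50 for St6gal1 and 0.76 for St8sia4.

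To compare levels between genes, CPM were divided by the length of each gene's merged exons in kilobases. Per kilobase, St3gal4 (16.5 ± 3.94) and St3gal1 (15.4 ± 2.39; SD, n = 4) led in QZ1-hi with overlapping ranges, clear of all the others. Slc35a1 (4.52), St6gal1 (4.36), Nans (3.80), Gne (3.63), St3gal6 (2.76), Cmas (2.37) and Cmah (2.00 ± 0.154) followed, each overlapping the next in range, and St8sia4 was lowest at 1.13 ± 0.312 CPM per kilobase. In QZ1-lo the order began with St3gal4 (32.8 ± 7.60) and St3gal1 (13.1 ± 1.36), now apart in range, and ended with St8sia4 (0.740 ± 0.174) and Cmah (0.434 ± 0.0589), also apart. Cmah was thus the least abundant of the 10 transcripts per kilobase in QZ1-lo, while in QZ1-hi it was in range of Cmas. With the longest transcript as the length, Cmah was lowest in both populations, and its QZ1-hi level of 2.18 CPM per kilobase overlapped in range with St8sia4 at 2.26. By that length Cmah no longer overlapped with Cmas in QZ1-hi, at 2.03 to 2.42 against 2.82 to 4.36, and Nans had rank 3 in both populations.

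The genes whose levels followed Cmah most closely over the 8 libraries were Cdk19 (Pearson's r = 0.990), Pdzrn3 (0.988), Clec2d (0.988), Robo2 (0.987) and Nr3c1 (0.987), of 15582 genes compared on log2 CPM. The points share the contrast between populations, and 164 genes had r above 0.95, so these values are a description. Pearson's r follows the pattern and not the size of a difference. The log2 fold change was 1.36 for Cdk19, 2.84 for Pdzrn3, 1.64 for Clec2d, 2.20 for Robo2 and only 0.44 for Nr3c1. Robo2 was low, at 3.18 to 4.71 CPM in QZ1-hi and 0.835 to 0.900 CPM in QZ1-lo. After each population's own mean was removed, r fell to 0.51 for Cdk19, 0.55 for Pdzrn3, 0.62 for Clec2d, 0.33 for Robo2 and 0.25 for Nr3c1. Among the other members, r with Cmah was 0.88 for St3gal6, 0.78 for Nans, 0.72 for Slc35a1, 0.70 for St8sia4, 0.62 for St6gal1, 0.57 for St3gal1, 0.42 for Gne, 0.34 for Cmas and -0.87 for St3gal4. With the population means removed, r was 0.83 for Nans, 0.67 for St8sia4, 0.12 for St6gal1, -0.031 for Cmas, -0.069 for St3gal1, -0.074 for St3gal4, -0.23 for St3gal6, -0.31 for Slc35a1 and -0.32 for Gne.

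The rest of the pathway was represented by 64 further genes, listed by family or by function, with earlier results of these data known. Of these, 52 passed the filter, 10 were called higher in QZ1-hi and 5 lower, beside 9.88% and 8.21% of all genes tested, and their median log2 fold change was 0.15. Sialylated carriers made up 5 of those called higher and 3 of those called lower. With library size alone, 10 were called lower, as were 2509 of all 15583 genes.

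**Figure D2:**
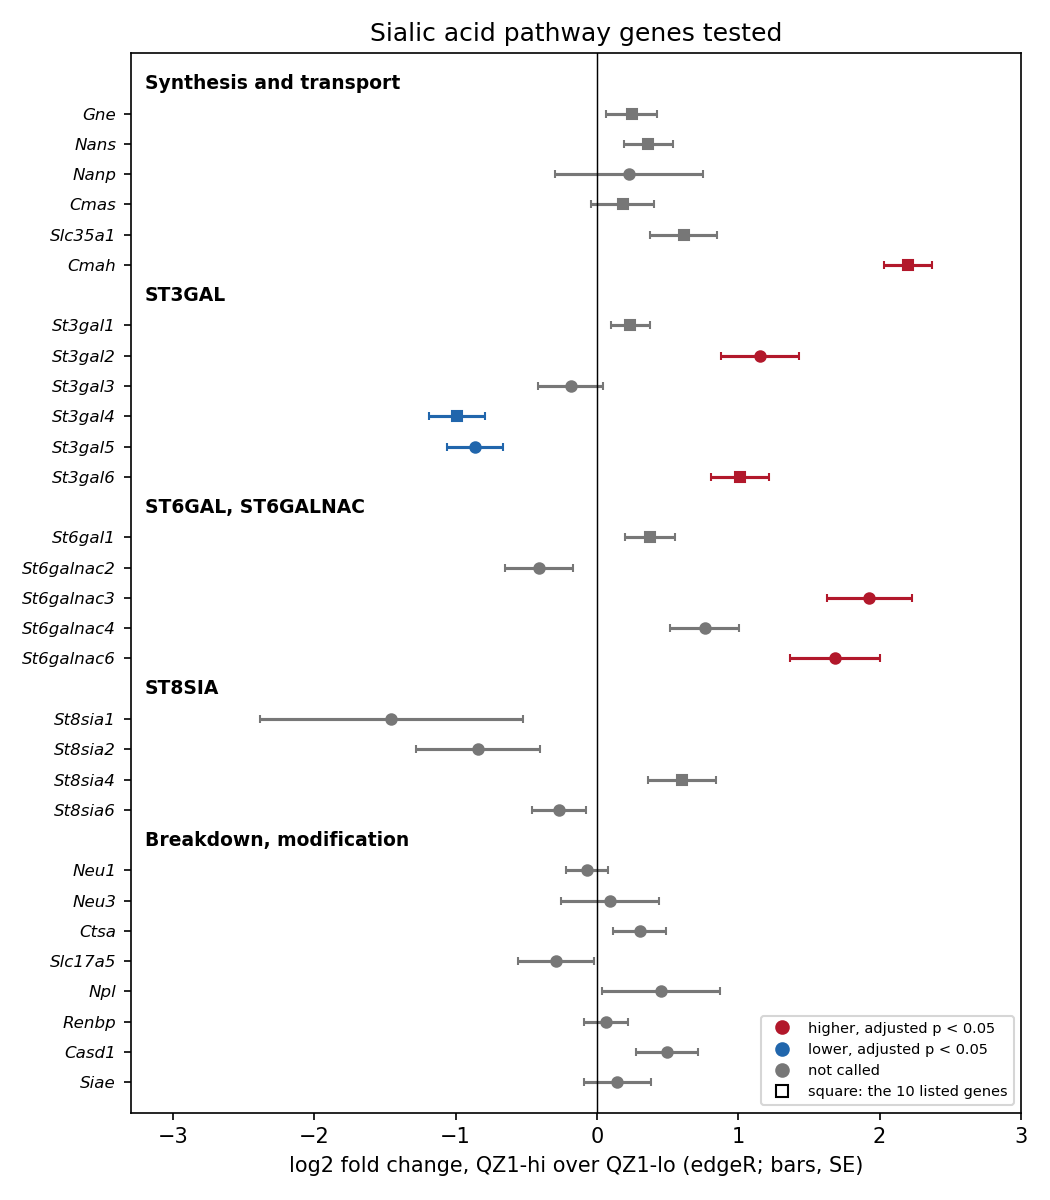
Log2 fold change of QZ1-hi over QZ1-lo (edgeR, bars are SE) for the sialic acid pathway genes tested, by family, with the 10 listed genes as squares and colors for genes called higher, lower or not called. Cmah, at 2.20, lies furthest right of the 10 listed genes and St3gal4, at -0.99, furthest left.

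Of the 10 remaining sialyltransferases tested, 3 were called higher, 1 lower and 6 not, beside 9.88% higher and 8.21% lower of all genes tested. A further 5 were too low to test. St3gal2, which sialylates gangliosides and O-glycans, measured 32.3, 19.2, 39.6 and 24.2 CPM in QZ1-hi and 11.6, 17.6, 14.8 and 7.82 CPM in QZ1-lo, with no overlap (log2 fold change 1.15, SE 0.28, edgeR adjusted p = 0.0136). With library size alone this call was lost (adjusted p = 0.0932, edgeR). St3gal5, which makes the simplest ganglioside from lactosylceramide, fell in QZ1-hi, at 15.3, 18.1, 9.89 and 11.0 CPM against 22.7, 23.8, 28.3 and 24.0 CPM (log2 fold change -0.86, SE 0.20, edgeR adjusted p = 0.0115). St3gal3 was not called. The ST3GAL family as a whole therefore held 2 genes called higher (St3gal2 and St3gal6), 2 called lower (St3gal4 and St3gal5) and 2 not called.

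In the ST6GALNAC family, St6galnac3 rose in QZ1-hi, with 12.5, 9.73, 11.4 and 7.63 CPM against 2.59, 1.51, 3.65 and 3.11 CPM (log2 fold change 1.93, SE 0.30, edgeR adjusted p = 0.00132). St6galnac6, which acts on gangliosides, rose too, with 7.63, 6.57, 6.71 and 4.35 CPM against 2.27, 2.56, 1.70 and 1.31 CPM (log2 fold change 1.69, SE 0.32, edgeR adjusted p = 0.00386). Neither gene overlapped between populations. St6galnac4, whose end at chr2:32599698 lies directly before the start of St6galnac6 at chr2:32599709, measured 22.3, 11.0, 22.2 and 21.2 CPM against 13.1, 8.38, 10.53 and 13.1 CPM and missed the threshold (log2 fold change 0.76, SE 0.24, edgeR adjusted p = 0.0526). It passed with DESeq2 (adjusted p = 0.0263) and without QZ1-hi library 2 (edgeR adjusted p = 0.00835). St6galnac2 had a log2 fold change of -0.41 and was not called, while St6gal2, St6galnac1 and St6galnac5 were too low to test.

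ST8SIA genes other than St8sia4 gave no call among 3 tested, with edgeR, DESeq2 or limma, and none had an unadjusted edgeR p under 0.05. Of all genes tested, edgeR called 18.1%. The most abundant of them, St8sia6, measured 31.8 CPM ± 9.26 in QZ1-hi and 38.4 CPM ± 3.75 in QZ1-lo (SD, n = 4 each; log2 fold change -0.27). St8sia2, the other polysialic acid synthase, measured 3.62 CPM ± 1.85 and 6.50 CPM ± 3.15 (SD, n = 4 each; log2 fold change -0.84, edgeR adjusted p = 0.238) and was called lower with library size alone. St8sia3 and St8sia5 were too low to test.

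As a share of the CPM per kilobase of all 20 sialyltransferases, St3gal4 took 25.1% ± 3.11 in QZ1-hi and 42.3% ± 5.25 in QZ1-lo (SD, n = 4 each). St3gal1 took 23.6% ± 1.41 and 17.01% ± 0.494, St3gal2 8.72% ± 2.40 and 3.39% ± 1.28, and St3gal6 4.26% ± 0.546 and 1.78% ± 0.432. Shares are parts of a whole, so the lower St3gal4 share in QZ1-hi raises the summed share of the others. The level of St3gal1 itself was not called. The ST3GAL family took 73.8% ± 0.687 in QZ1-hi and 80.8% ± 1.66 in QZ1-lo, the ST6GALNAC family 10.4% ± 1.34 and 5.56% ± 0.439, and the ST8SIA family 9.19% ± 1.75 and 9.27% ± 1.60. By merged exon length, St3gal4 was thus the leading sialyltransferase transcript in QZ1-lo and shared the lead with St3gal1 in QZ1-hi. With the longest transcript as the length, the QZ1-hi shares were narrowly apart, at 23.7% to 30.4% for St3gal4 and 20.1% to 23.6% for St3gal1. The summed level of all 20 genes overlapped, at 57.7 to 78.9 CPM per kilobase in QZ1-hi and 70.0 to 89.2 in QZ1-lo. In raw counts there were 1.05 to 2.01 reads of St3gal4 for each read of St3gal2 in QZ1-hi libraries and 4.38 to 11.8 in QZ1-lo libraries.

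**Figure D3:**
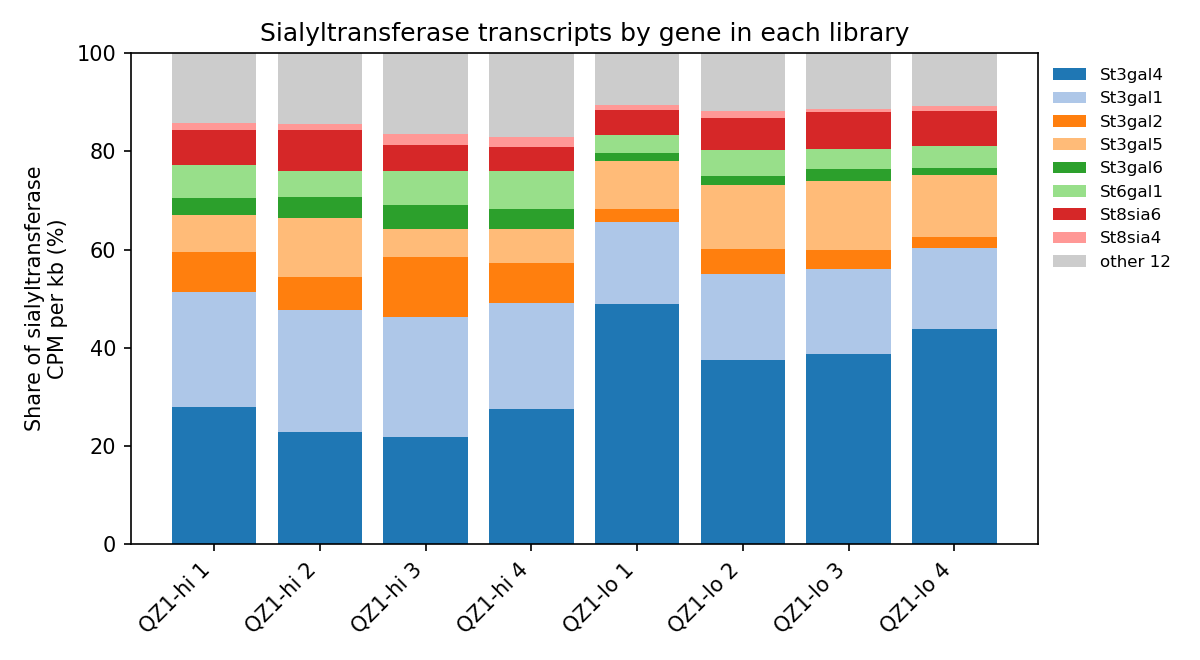
Shares of the summed CPM per kilobase of 20 sialyltransferase genes (percent, stacked bars) in each of the 8 libraries. St3gal1, St3gal2, St3gal4, St3gal5, St3gal6, St6gal1, St8sia4 and St8sia6 are drawn singly, and the remaining genes are combined. St3gal4 takes 21.9% to 27.9% in the QZ1-hi libraries and 37.6% to 49.0% in the QZ1-lo libraries.

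Genes of synthesis and breakdown outside the 10 gave no call among 9 tested with edgeR, DESeq2 or limma, while edgeR called 18.1% of all genes tested. Of these 9, 1 (Casd1, which acetylates sialic acid) had an unadjusted edgeR p under 0.05. Casd1 had a log2 fold change of 0.50 (SE 0.22, edgeR adjusted p = 0.161). The lysosomal sialidase Neu1 measured 31.4 CPM ± 5.97 and 33.0 CPM ± 2.41 (log2 fold change -0.07, SE 0.15), and its protective partner Ctsa 139 CPM ± 36.6 and 113 CPM ± 19.3 (log2 fold change 0.30, SE 0.19; SD, n = 4 each). The lysosomal exporter Slc17a5 had a log2 fold change of -0.29 and the esterase Siae, which removes the acetyl group, 0.14. Nanp, at 1.42 CPM and 1.21 CPM, was close to a sequence copy, with 50.8% of its 50-base stretches found in other genes, and its value is uncertain. Neu2 and Neu4 were too low to test.

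Of 12 acceptor glycan enzymes tested, 1 was called higher and 1 lower, beside 9.88% and 8.21% of all genes tested. B4galt4, a galactosyltransferase, was called higher (log2 fold change 1.29, SE 0.30, edgeR adjusted p = 0.0109), with 22.3, 11.6, 25.2 and 14.3 CPM in QZ1-hi and 5.75, 11.1, 7.53 and 5.61 CPM in QZ1-lo. With library size alone its edgeR adjusted p was 0.0538. B4galt1, the main enzyme adding galactose to N-glycans, was called lower (log2 fold change -0.50, SE 0.15, edgeR adjusted p = 0.044), but the populations overlapped, at 83.9, 62.1, 61.2 and 59.1 CPM against 114, 84.0, 95.9 and 82.2 CPM. Its call was lost in 6 of 8 fits that left out 1 library, namely without QZ1-hi library 2, 3 or 4 or QZ1-lo library 1, 2 or 3, with adjusted p up to 0.132 (edgeR). The core O-glycan enzyme C1galt1 and its chaperone C1galt1c1 had log2 fold changes of -0.11 and -0.13 and were not called.

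Of 9 lectins tested, only Selp was called, as higher, beside 9.88% higher and 8.21% lower of all genes tested. P-selectin, which Selp encodes, is stored in endothelial cells and platelets and binds sialylated ligands on leukocytes. It measured 9.36, 1.88, 8.73 and 3.22 CPM in QZ1-hi and 0.507, 0.407, 0.941 and 0.614 CPM in QZ1-lo, without overlap (log2 fold change 3.22, SE 0.57, edgeR adjusted p = 0.00251). The platelet markers Pf4, Itga2b and Gp9 summed to 11.8 to 20.1 CPM in QZ1-hi and 2.89 to 7.49 CPM in QZ1-lo (exact permutation p = 0.0286), and their part in the Selp difference was not tested, nor was that of the endothelial markers. E-selectin (Sele) had a log2 fold change of 2.68 with an SE of 1.09 and was not called (edgeR adjusted p = 0.126). The siglecs, receptors mainly of leukocytes, were detected in these CD45-negative sorts without a call: Siglec1 measured 59.4 CPM ± 23.9 and 49.6 CPM ± 21.3 and Cd22 20.9 CPM ± 7.64 and 17.8 CPM ± 3.04 (SD, n = 4 each), with log2 fold changes of 0.26 and 0.23. Siglecf and Cd33 had log2 fold changes of 0.16 and -0.09.

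Sialylated carrier proteins were called in both directions, with 5 of 12 higher and 3 lower, beside 9.88% and 8.21% of all genes tested. This list was chosen with earlier results of these data known, so its counts are a description. Podxl, the sialomucin podocalyxin, rose with 364, 203, 398 and 176 CPM in QZ1-hi against 46.6, 42.6, 75.2 and 27.7 CPM in QZ1-lo (log2 fold change 2.57, SE 0.34, edgeR adjusted p = 0.000571). Cd34 measured 134 CPM ± 51.2 and 12.8 CPM ± 8.85 (log2 fold change 3.38, SE 0.53, edgeR adjusted p = 0.00128) and endomucin (Emcn) 28.6 CPM ± 14.4 and 2.91 CPM ± 1.82 (log2 fold change 3.29, SE 0.51, edgeR adjusted p = 0.00119; SD, n = 4 each). All 3 are sialomucins found on blood vessel endothelium. The endothelial, fibroblast and pericyte marker sums all rose beside them, the fibroblast sum from 38.8 to 353 CPM in QZ1-lo to 1572 to 3035 CPM in QZ1-hi. The part of these cell types in the differences, that of Cd34 included, was not tested. Ncam1, the main carrier of polysialic acid, rose at a low level, from 0.747 CPM ± 0.460 to 4.41 CPM ± 1.99 (SD, n = 4 each; log2 fold change 2.53, SE 0.54, edgeR adjusted p = 0.00699), and Nrp2, another polysialic acid carrier, had a log2 fold change of 0.70 and was not called. Muc16 was called higher (log2 fold change 3.05, SE 0.93, edgeR adjusted p = 0.0419), but the call was lost without any 1 of QZ1-hi libraries 1, 2 and 4 or QZ1-lo libraries 1 and 2, with edgeR adjusted p up to 0.146.

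The carriers called lower were Muc4, Muc5b and Cd24a, of which the mucins are best known from epithelium. The membrane mucin Muc4 measured 112, 177, 91.2 and 121 CPM in QZ1-hi and 257, 341, 273 and 225 CPM in QZ1-lo (log2 fold change -1.13, SE 0.20, edgeR adjusted p = 0.00273). The secreted airway mucin Muc5b measured 43.2, 67.7, 69.4 and 48.9 CPM against 188, 153, 97.7 and 107 CPM (log2 fold change -1.25, SE 0.23, edgeR adjusted p = 0.00309), and Cd24a 106 CPM ± 31.9 against 227 CPM ± 57.7 (SD, n = 4 each; log2 fold change -1.09, SE 0.23, edgeR adjusted p = 0.00682). None of the 3 overlapped between populations, and the club and ciliated sums were lower in QZ1-hi beside them, whose part was not tested. Muc1, another epithelial membrane mucin, measured 212 CPM ± 45.7 and 255 CPM ± 17.3 (SD, n = 4 each; log2 fold change -0.27) and was not called. The broadly expressed carrier Cd164 had a log2 fold change of 0.07 (SE 0.13).

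**Figure D4:**
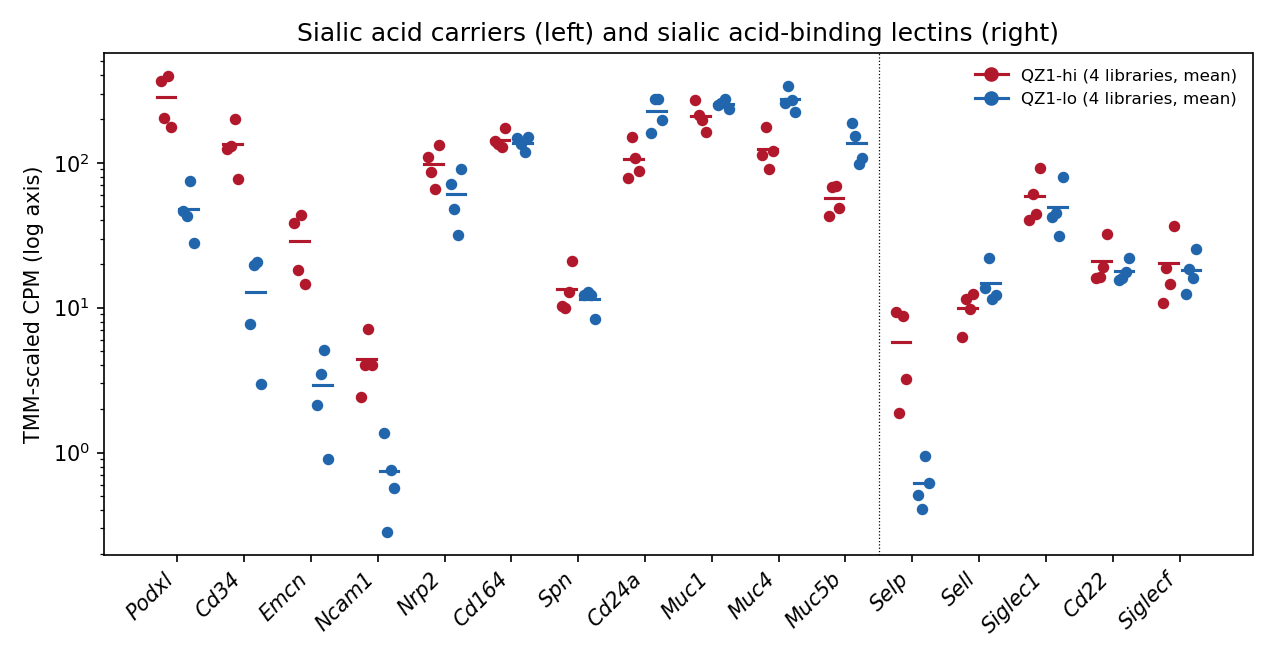
TMM-scaled CPM on a log axis of sialylated carriers (left of the dotted line) and sialic acid-binding lectins (right), with a point for each of the 4 QZ1-hi and 4 QZ1-lo libraries and a line at each population's mean. Of the genes tested, the carrier Muc16, which was called higher, and the lectins Sele, Cd33, Mag and Siglece are not drawn. Podxl, Cd34, Emcn, Ncam1 and Selp lie higher in all QZ1-hi libraries, Muc4, Muc5b and Cd24a lie lower, and Siglec1, Cd22 and Siglecf overlap.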

How the data were processed

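RNA-seq of sorted lung cells was analyzed from read counts per Entrez gene, deposited by the authors as raw values. Per the study's methods, features were counted on BAM files with Rsubread from stranded SMARTer total RNA libraries. The labels name mm10. The aligner, annotation and strand setting are not given in the sources used here. Symbols were assigned to 25275 of 27179 genes from RefSeq and to 18 more from GENCODE, and all listed genes were matched.

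Genes were filtered by filterByExpr (minimum count 10, minimum total 15), scaled by TMM and tested between 4 QZ1-hi and 4 QZ1-lo libraries with edgeR 4.0.16 quasi-likelihood tests in R 4.3.3, with Benjamini-Hochberg adjustment over all genes. SE was taken as the size of each log2 fold change over the root of its F statistic. DESeq2 1.42.0, limma 3.58.1, other scalings and filters, and leaving out each library were alternatives. Likeness used log2 CPM with a prior count of 2. Marker sums were compared by two-sided exact permutation over 70 assignments. Total counts were 18380918 to 26847938. Outside mitochondrial and ribosomal RNA genes, libraries held 8749446 to 12115739 counts in QZ1-hi and 11870612 to 16389316 in QZ1-lo. These counts limit precision to counting error and library spread. No library was left out.

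The genes named are the 10 members, the listed pathway genes and the 5 genes most like Cmah. Members and lists were chosen with earlier results of these data known.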

Additional observations from a re-analysis of the deposited data

Results flagged for a closer look

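In 4 of 124 groups of 4 libraries, the most distant library lay further from the others than Dixon's test allows, and chance alone gives about 1 in 20. All 4 were outside the 10 listed genes. QZ1-lo library 1 had 18.3 CPM of St6galnac2, with the other 3 at 10.6 to 11.3 CPM. QZ1-hi library 2 had 11.0 CPM of St6galnac4, with the others at 21.2 to 22.3 CPM. QZ1-hi library 1 had 83.9 CPM of B4galt1, with the others at 59.1 to 62.1 CPM. QZ1-lo library 4 had 8.35 CPM of Spn, with the others at 12.2 to 12.9 CPM. Their causes were not tested.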

How the results depend on the processing

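Of 160 recomputed log2 fold changes of the 10 genes, 152 kept their direction and side of the threshold, 1 lost its call, 2 gained one and 5 reversed. These are refits of the same 8 libraries, and for the 7 genes not called, keeping that side meant staying uncalled. All 5 reversals came from scaling by library size alone, at -0.33 for Cmas, -0.16 for Gne, -0.072 for Nans, -0.20 for St3gal1 and -0.050 for St6gal1. With that scaling, calls over all genes went from 1540 higher and 1280 lower to 882 higher and 2509 lower, members called higher went from 2 to 1, and other pathway genes called lower from 5 to 10. Leaving out 1 library gave 2 to 4 members higher and 1 lower, and 9 to 11 other pathway genes higher and 4 to 6 lower. The count of 4 came without QZ1-hi library 2. No paired analysis was possible because the labels give no replicate numbers and tie no library to a mouse, and the library numbers used here are only names. Nothing here separates a change per cell from a change in the mix of sorted cells.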
